A study of Mus musculus with 13 samples.

Results

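The 10 genes described here encode proteins of the acentriolar spindle pole of the mouse oocyte: the scaffolds Cep192, Pcnt and Cep152, the kinases Plk1 and Plk4, the microtubule nucleation factors Nedd1, Tubg1 and Haus6, and the spindle assembly factors Tpx2 and Numa1. They were picked by gene symbol for these roles, with earlier results of these data known. All 10 were found among the 18939 genes with counts and among the 49686 genes with FPKM values, and all 10 passed the filter on low counts in every comparison. The libraries were made from 13 single oocytes of young C57BL/6 females primed with PMSG, which brings ovarian follicles to grow. Germinal vesicle (GV) oocytes had been injected with mRNA of FBL–GFP, a label of the nucleolus, together with H2B-mCherry, a label of chromatin, kept for 6 h in Cilostamide, an inhibitor that holds oocytes at the GV stage, and classified by their nucleolar FBL–GFP pattern. They were classed as NSN (non-surrounded nucleolus, the less mature chromatin state) or SN (surrounded nucleolus). There were 3 NSN GV oocytes, 3 SN GV oocytes, 3 MII oocytes matured in vitro from NSN oocytes (NSN-MII) and 4 matured from SN oocytes (SN-MII). Injection, PMSG and Cilostamide were common to all groups, and uninjected oocytes were not among the libraries. MII oocytes came only from NSN and SN oocytes that had matured. The sources do not say whether the oocytes of a group came from separate females, so the p-values measure the spread between these oocytes.

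Mouse oocytes lose their centrioles as they grow, and the meiotic spindle is built from many acentriolar microtubule organizing centres, which are fragmented and gathered into 2 poles. In cells with centrioles CEP192 recruits PLK4 together with CEP152, which starts centriole duplication, and CEP192 and pericentrin, the product of Pcnt, organize the pericentriolar material. PLK1 fragments the organizing centres and drives meiotic divisions, NEDD1 brings the γ-tubulin ring complex to the pole, and augmin, of which HAUS6 is a subunit, carries that complex onto the sides of existing microtubules. TPX2 acts in the Ran pathway and activates Aurora A, and NuMA, the product of Numa1, works with dynein to focus the poles. Fully grown oocytes store mRNA, and during maturation some stored mRNAs gain poly(A) and others are degraded. The libraries were made from cDNA primed on poly(A), so a value is a share of the polyadenylated mRNA captured from an oocyte. The amount per oocyte was not measured.

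The 3′ ends of the mRNAs are shown because poly(A) is what the libraries capture. In the last 100 bases of each GENCODE M21 transcript (GRCm38), searched on the transcript strand only, TTTTAT or TTTTAAT, the DNA letters of the cytoplasmic polyadenylation element, were found in 2 of the 10 members, Pcnt and Plk4. They were found in 19.5% of the 11233 tested genes with a complete protein-coding transcript. The polyadenylation signal AATAAA or ATTAAA was found in 10 of the 10 members and in 80.7% of those genes. Plk4 holds 3 matches of the element and Pcnt 1, whereas Nedd1 and Plk1 hold the polyadenylation signal only. Each stretch is 30 bases of the last exon, in the 3′ UTR, read 5′ to 3′ along the mRNA, with the matches in capitals, and no match overlaps another.
Plk4, chr3:40816840-40816869, plus strand: caaatacaTTTTATaaAATAAAcacagtgg
Pcnt, chr10:76351276-76351305, minus strand: ttctTTTTATtggcaaaacaAATAAAacta
Nedd1, chr10:92684752-92684781, minus strand: agcactgagtacAATAAAttttcacattca
Plk1, chr7:122169843-122169872, plus strand: agctttatatatATTAAAatgtgtacatct
The changes of these genes between stages are given below with their values, and the part of the element in them was not tested.

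The second pair of sequences is shown because it bears on how far reads can be assigned. Tubg1 encodes γ-tubulin 1 and lies on chromosome 11 beside Tubg2, which encodes a near-identical γ-tubulin. The coding sequences of 1353 bases differ at 91 positions (93.3% identity), and the longest identical run is 164 bases. The 49 coding bases of their first coding exon follow (GRCm38), with the 7 differing bases in capitals.
Tubg1, chr11:101120194-101120242, plus strand: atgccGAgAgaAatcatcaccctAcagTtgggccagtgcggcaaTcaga
Tubg2, chr11:101156120-101156168, plus strand: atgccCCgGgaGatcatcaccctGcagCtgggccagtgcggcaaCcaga
Of the stretches of 50 bases along the Tubg1 transcript, 14.1% were also found in a transcript of another gene, 13.9% in Tubg2. Shared stretches made up 10.9% of Plk1, with the pseudogene Plk-ps1 and the antisense gene Gm44985, 7.29% of Nedd1, 5.48% of Plk4 and 3.39% of Pcnt. They made up 0% of Cep192 and Cep152 and under 0.5% of Haus6, Tpx2 and Numa1. Reads on shared stretches had been divided between genes by RSEM, and no strand-specific step was named, so the values of Tubg1 and Plk1 carry that uncertainty.

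Total counts per library lay between 7140416 and 8846287. A count of 1 or more was found for 12685 to 13333 genes at GV and for 11579 to 12511 genes at MII. The top 10 genes of a library held 5.47% to 6.6% of its counts at GV and 8.92% to 12.1% at MII. The summed CPM of 12 oocyte markers lay between 18389 and 31925 in the libraries. That of 12 cumulus and granulosa markers lay between 58.3 and 85.2 CPM at GV and between 86.2 and 176 CPM at MII, and Fst, Amh, Foxl2 and Tnfaip6 had at most 3 counts in every library. Cyp19a1 made up most of this sum, at 37.8 to 67.3 CPM at GV and 77.1 to 158 CPM at MII. Nr5a2 was at 9.87 to 18.5 CPM at GV and 6.94 to 15.5 CPM at MII, and no other of these markers exceeded 4.88 CPM. Of these 12 markers, 4 passed the filter and 1 rose at MII, and the part of other cells in the member values was not tested. NSN GV oocyte 2 and NSN-MII oocyte 3 stood apart from the oocytes of their groups. The chi-square per gene between libraries of a group, which is near 1 where they differ by counting error only, was 59.9 to 67.3 for the former and 53.1 to 67.8 for the latter, beside 10.2 to 33.1 for the other 11 pairs. NSN-MII oocyte 3 also had the fewest genes with a count and the highest share of counts in its top 10 genes (12.1%). Where leaving out either ended a call or moved a value by much, the value without it is given beside the result.

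Between GV and MII, 6 of the 10 genes rose and none fell: Cep192, Plk4, Nedd1, Tpx2, Numa1 and Tubg1. Of all 11375 genes tested, 68.6% were called, 31.7% higher and 36.9% lower, so that a call was as common over all genes as among the 10. The counts differed from that background in direction, which was not tested as a list. Such a test could not decide, because the 10 genes were chosen with earlier results of these data known. The median log2 fold change was 0.72 over the 10 genes and -0.10 over all genes tested. A gene was called where edgeR's quasi-likelihood test gave a Benjamini-Hochberg adjusted p under 0.05, values are CPM, counts scaled to a common library size by TMM, and a fold change over both types is the mean of the NSN and SN changes. In 5 genes every MII oocyte was above every GV oocyte, which held for 20.9% of all genes tested. Plk1, Pcnt, Haus6 and Cep152 were not called.

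**Figure D1:**
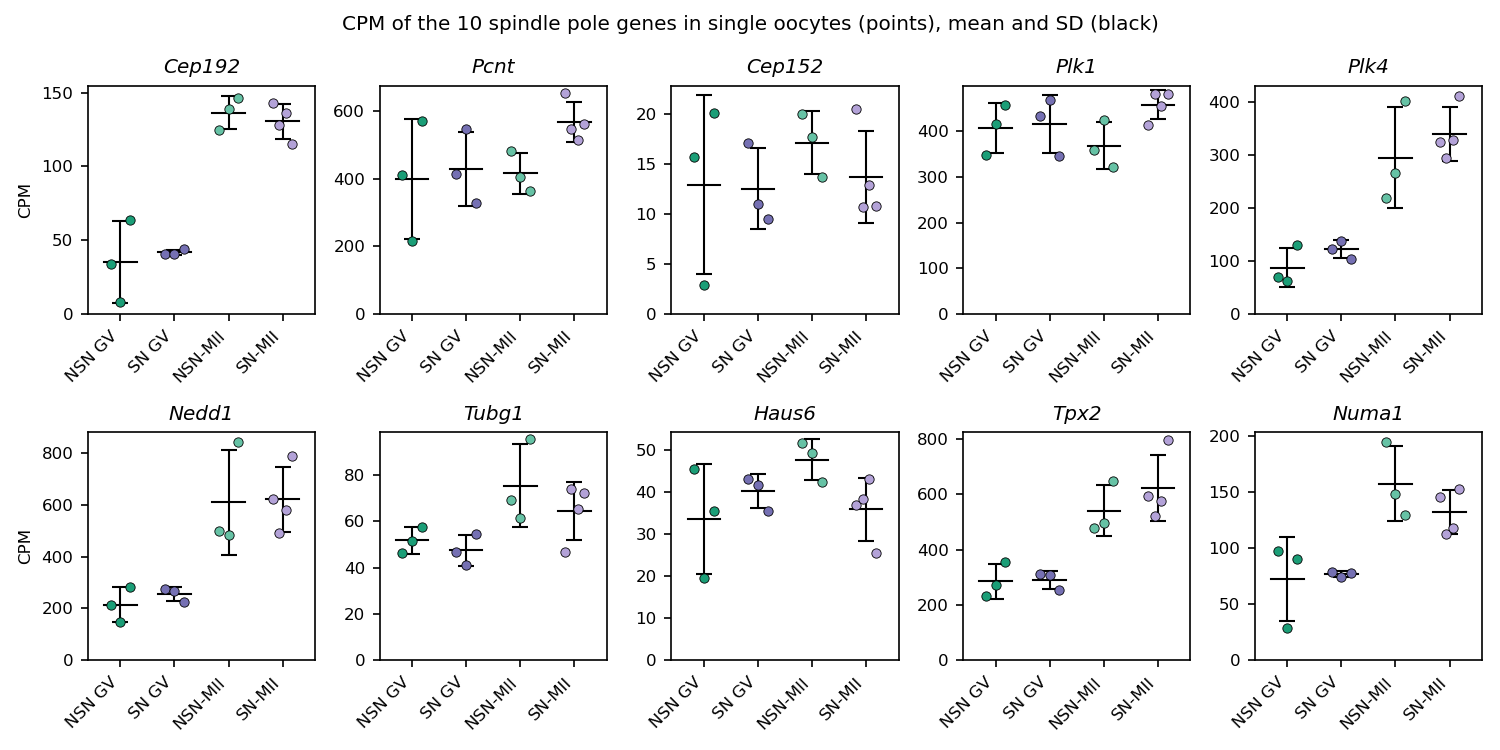
CPM (vertical axes, starting at 0) of each of the 10 genes in the 13 oocytes, by group. Points are single oocytes, the long black line is the mean and the error bar the SD (n = 3, 3, 3 and 4). All MII oocytes lie above all GV oocytes for Cep192, Plk4, Nedd1, Tpx2 and Numa1, and the groups overlap for the other 5 genes.

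Among the scaffolds, Cep192 had the largest change of the 10 genes in counts, though not in FPKM, where limma on log2(FPKM + 1) gave 1.29 for Cep192 and 1.49 for Plk4. Its level was 40.3, 40.5 and 43.8 CPM in SN GV oocytes and 33.6, 7.87 and 63.4 CPM in NSN GV oocytes. It was 143, 128, 136 and 115 CPM in SN-MII oocytes and 124, 139 and 146 CPM in NSN-MII oocytes. The lowest MII oocyte was thus above the highest GV oocyte, and the GV oocytes of the NSN class were spread far more widely than the others. The log2 fold change was 1.81 ± 0.31 (SE), with an adjusted p of 5.7e-05 by edgeR's quasi-likelihood test. Without NSN GV oocyte 2 the log2 fold change was 1.57.

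Pcnt, the gene of pericentrin, was at 413, 547 and 327 CPM in SN GV oocytes and at 410.0, 215 and 572 CPM in NSN GV oocytes. It was at 653, 547, 514 and 561 CPM in SN-MII oocytes and at 482, 404 and 363 CPM in NSN-MII oocytes. The stages overlapped, and every NSN-MII oocyte was below every SN-MII oocyte. The stage difference was 0.23 ± 0.19 (SE) on the log2 scale and did not pass the test (adjusted p = 0.297, edgeR's quasi-likelihood test). The FPKM values of Pcnt gave another answer. They lay between 86.0 and 139 at GV and between 118 and 229 at MII, and limma on log2(FPKM + 1) gave a difference of 0.59 with an adjusted p of 0.0052. FPKM divides the counts by a length that RSEM estimates for each library from the isoforms it assigns. The count per FPKM, scaled for library size, was expressed as a share of the gene's mean over all 13 libraries. For Pcnt it was 76.7% in NSN GV oocyte 2 and 116% to 154% in the other GV libraries. It was 111% in SN-MII oocyte 4 and 71.4% to 88.9% in the other MII libraries. That of Plk1 stayed between 98.4% and 103% in all. The count per FPKM varied as widely for Cep192, from 37.4% to 132%, and for Haus6, from 67.4% to 153%. The call for Pcnt thus depended on which deposited measure was used, and which isoforms were present was not tested.

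Cep152, which works with Cep192 in recruiting PLK4, was the lowest of the genes. It ranged from 2.87 to 20.1 CPM at GV and from 10.7 to 20.4 CPM at MII, and no difference was detected at this depth. The log2 difference was 0.27 with a 95% interval from -0.41 to 0.95 (adjusted p = 0.503, edgeR's quasi-likelihood test). Counts were 23 to 168 per library. Without NSN GV oocyte 2 the stage differences of Cep152, Pcnt and Haus6 were 0.03, 0.08 and 0.04, and none was called.

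Of the kinases, Plk4, the kinase that starts centriole duplication and that also acts at acentriolar poles, rose. It was at 123, 138 and 104 CPM in SN GV oocytes and at 69.2, 61.2 and 129 CPM in NSN GV oocytes. It was at 323, 294, 329 and 412 CPM in SN-MII oocytes and at 218, 265 and 401 CPM in NSN-MII oocytes. Neither stage reached into the range of the other. The rise was 3.09-fold, 1.63 ± 0.20 (SE) on the log2 scale, with an adjusted p of 1.9e-06 by edgeR's quasi-likelihood test.

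Plk1, the polo kinase that acts in meiotic resumption and at the poles, was at nearly equal levels at both stages, with a mean of 412 CPM (SD 53.1, n = 6) at GV and of 420.2 CPM (SD 61.1, n = 7) at MII. Single oocytes ranged from 347 to 469 CPM at GV and from 322 to 483 CPM at MII. The log2 difference was -0.003, and its 95% interval ran from -0.26 to 0.25. This holds on the TMM scale: with libraries scaled by total counts alone, which moved the median of all genes from -0.10 to -0.39, the difference of Plk1 was -0.29 and was called lower (adjusted p = 0.044, edgeR's quasi-likelihood test).

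The nucleation factors differed among themselves. Nedd1, the adaptor of the γ-tubulin ring complex, was at 277, 266 and 225 CPM in SN GV oocytes and at 212, 148 and 284 CPM in NSN GV oocytes. It was at 624, 492, 579 and 790 CPM in SN-MII oocytes and at 499, 485 and 845 CPM in NSN-MII oocytes. The stages did not overlap, and the rise was 2.63-fold, 1.39 ± 0.19 (SE) on the log2 scale (adjusted p = 5.4e-06, edgeR's quasi-likelihood test). The spread at MII came with single high oocytes in each class.

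Tubg1 was at 46.9, 41.0 and 54.5 CPM in SN GV oocytes and at 46.2, 51.6 and 57.7 CPM in NSN GV oocytes. It was at 46.7, 74.1, 65.3 and 72.3 CPM in SN-MII oocytes and at 69.3, 61.6 and 95.8 CPM in NSN-MII oocytes. One SN-MII oocyte lay within the GV range and the other MII oocytes were above it. The difference of 0.49 ± 0.17 (SE) on the log2 scale was called (adjusted p = 0.016, edgeR's quasi-likelihood test). It was the weakest of the 6 calls, and it was lost without NSN-MII oocyte 3 (0.37, adjusted p = 0.052), with libraries scaled by total counts (0.18, adjusted p = 0.302), and in FPKM values by limma (0.32, adjusted p = 0.057).

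Haus6, an augmin subunit, ranged from 19.6 to 45.5 CPM at GV and from 25.5 to 51.7 CPM at MII. Its log2 difference was 0.17 with a 95% interval from -0.22 to 0.57 (adjusted p = 0.459, edgeR's quasi-likelihood test), and the stages overlapped over most of their range.

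Both spindle assembly factors rose. Tpx2 was at 310.4, 309 and 254 CPM in SN GV oocytes and at 232, 270.3 and 356 CPM in NSN GV oocytes. It was at 596, 522, 575 and 796 CPM in SN-MII oocytes and at 478, 497 and 648 CPM in NSN-MII oocytes. The stages did not overlap, and the rise was 2.01-fold, 1.01 ± 0.15 (SE) on the log2 scale (adjusted p = 1.8e-05, edgeR's quasi-likelihood test).

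Numa1 was at 78.4, 74.1 and 78.3 CPM in SN GV oocytes and at 97.5, 29.1 and 90.7 CPM in NSN GV oocytes. It was at 146, 113, 118 and 153 CPM in SN-MII oocytes and at 195, 149 and 129.5 CPM in NSN-MII oocytes. Among GV oocytes 1 library was far below the other 5, and MII oocytes were above all of them. The rise was 1.94-fold, 0.95 ± 0.23 (SE) on the log2 scale (adjusted p = 0.0013, edgeR's quasi-likelihood test), and 0.76 on the log2 scale without NSN GV oocyte 2.

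The same question was asked within each class. Among SN oocytes 5 genes rose, beside 56.3% of all genes called and 25.1% called higher. Among NSN oocytes 5 rose, beside 56.3% of all genes called and 25.4% called higher. These were Cep192, Plk4, Nedd1, Tpx2 and Numa1 in both classes. The log2 fold changes were 1.65 ± 0.42 (SE) in SN and 1.964 ± 0.44 in NSN for Cep192, and 0.96 and 1.61 in FPKM by limma, where both were called as well. They were 1.48 ± 0.27 and 1.77 ± 0.29 for Plk4. They were 1.28 ± 0.26 and 1.51 ± 0.27 for Nedd1, and 1.10 ± 0.21 and 0.92 ± 0.22 for Tpx2. For each of these 4 genes the difference between classes was smaller than its own standard error in the interaction test, which lay at 0.59, 0.39, 0.37 and 0.30. For Numa1 the changes were 0.78 ± 0.31 (adjusted p = 0.041, edgeR's quasi-likelihood test) and 1.12 ± 0.33 (adjusted p = 0.0083). Without NSN GV oocyte 2 the NSN changes were 1.49 for Cep192, 1.57 for Plk4, 1.295 for Nedd1, 0.88 for Tpx2 and 0.75 for Numa1. Without NSN-MII oocyte 3 they were 1.88, 1.46, 1.17, 0.75 and 1.21 in the same order. All 5 genes stayed called in NSN oocytes in both fits. Without NSN GV oocyte 2 the NSN changes of Cep192 and Numa1 were below their SN values from all libraries, and those of Plk4 and Nedd1 were above. Without NSN-MII oocyte 3 Plk4 and Nedd1 were below and Cep192 and Numa1 above. Tpx2 was below its SN value in both fits, as it was with all libraries. The call for Numa1 in SN oocytes was lost under 12 of 15 alternatives, among them when libraries were scaled by total counts (0.48, adjusted p = 0.252), in FPKM values by limma (0.54, adjusted p = 0.133) and when any SN library other than SN-MII oocyte 2 was left out (adjusted p up to 0.102). In NSN oocytes it was lost without NSN-MII oocyte 1 (adjusted p = 0.058) or with total counts (adjusted p = 0.066). Tubg1 was not called within a class, at 0.44 ± 0.23 in SN and 0.54 ± 0.25 in NSN.

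**Figure D2:**
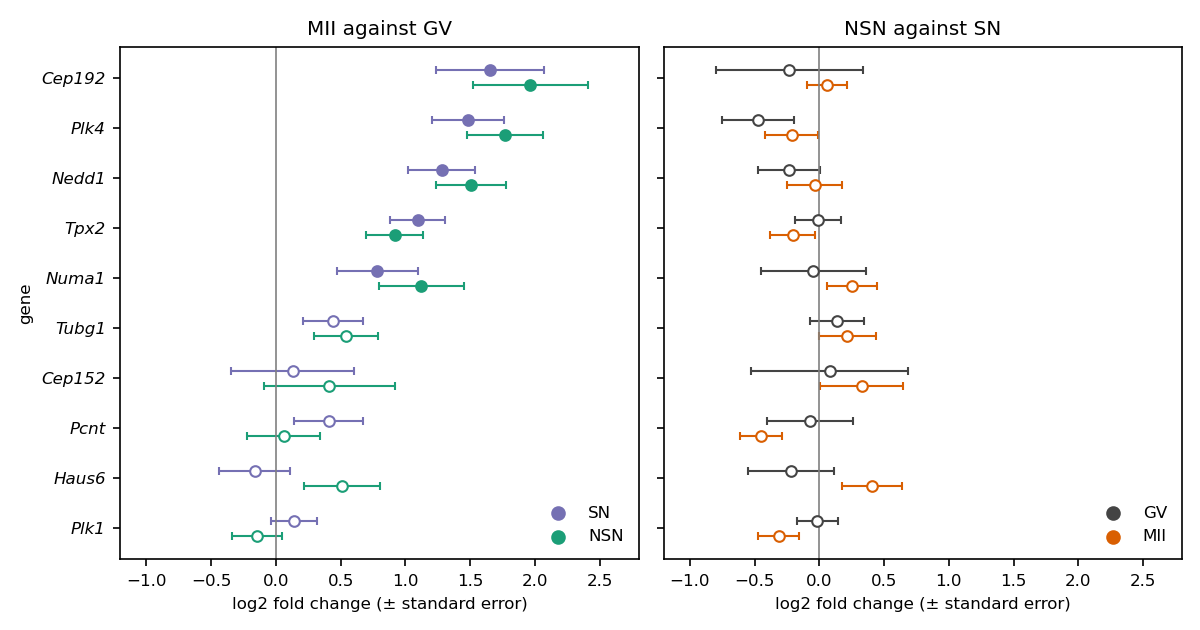
Log2 fold changes of the 10 genes (horizontal axes) with standard errors, MII against GV within SN and NSN oocytes (left) and NSN against SN within GV and MII (right). Filled points passed the test and open points did not. The 5 genes that rose did so in both classes, and no point in the NSN against SN panel is filled.

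Whether the change with maturation differed between the classes was tested as an interaction, and none of the 10 genes passed, with the lowest unadjusted p at 0.114 (edgeR's quasi-likelihood test). Of all genes, 2 of 11375 (0.0176%) were called. The largest value was that of Haus6, a log2 difference of 0.67 between the changes of NSN and SN oocytes, with a 95% interval from -0.12 to 1.46. Pcnt had the lowest value, -0.35, with an interval from -1.11 to 0.41. Without NSN GV oocyte 2 they were 0.40 and -0.65, and neither was called. Differences of these sizes were not detectable with 3 or 4 oocytes a group.

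NSN and SN oocytes were then compared at each stage. At GV none of the 10 genes was called, and neither was any of 10839 genes (0% called by edgeR's quasi-likelihood test, 0 also by DESeq2), with 190 of all genes (1.75%) but none of the members at an unadjusted p under 0.05. In each member the classes overlapped, and over all genes 6.03% did not overlap. The log2 differences, NSN minus SN, ran from -0.48 for Plk4 to 0.14 for Tubg1. Plk4 averaged 86.4 ± 37.0 CPM over the 3 NSN oocytes and 121 ± 17.0 CPM over the 3 SN oocytes (± SD), with a 95% interval of the log2 difference from -1.02 to 0.07. Nedd1 averaged 214 ± 68.5 CPM over the NSN and 256 ± 27.6 CPM over the SN oocytes, a log2 difference of -0.23. Without NSN GV oocyte 2 these differences were -0.27 for Plk4 and -0.01 for Nedd1. For Cep192, Pcnt and Numa1 the sign turned without 1 library. The values were -0.23, -0.08 and -0.05 with all libraries and 0.24, 0.23 and 0.33 without NSN GV oocyte 2, and none was called either way. That of Pcnt was also positive, at 0.11, without SN GV oocyte 2.

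At MII none of the 10 genes was called, and 26 of 10028 genes (0.259%) were. Without NSN-MII oocyte 3 the calls over all genes rose to 233, again with none of the 10. The lowest p was that of Pcnt, which averaged 416 ± 60.3 CPM over the 3 NSN-MII and 569 ± 59.3 CPM over the 4 SN-MII oocytes (± SD). The log2 difference was -0.45 ± 0.16 (SE), with an unadjusted p of 0.016 and an adjusted p of 0.356 by edgeR's quasi-likelihood test, and adjusted p between 0.229 and 0.616 when each MII library was left out in turn. Pcnt was also the only member whose classes did not overlap in CPM, which held for 10.2% of all genes, while 9.38% of all genes had an unadjusted p under 0.05. In FPKM the classes of Pcnt overlapped, at 118 to 180 in NSN-MII and 133 to 229 in SN-MII oocytes. Plk1 was at 369 ± 51.8 CPM in NSN-MII and 459 ± 32.2 CPM in SN-MII oocytes, a log2 difference of -0.31 (adjusted p = 0.5683). Haus6 was at 47.8 ± 4.83 CPM in NSN-MII and 36.0 ± 7.48 CPM in SN-MII oocytes, a log2 difference of 0.41 (adjusted p = 0.641). In FPKM its classes did not overlap, at 14.2 to 16.3 in NSN-MII and 5.27 to 11.5 in SN-MII oocytes, and limma gave a difference of 0.75 that was not called either (adjusted p = 0.447). Numa1 had a log2 difference of 0.25, with a 95% interval from -0.12 to 0.63. The widest 95% intervals of the 10 genes, those of Cep192 at GV and of Cep152 at MII, reached 1.35 and 0.95 from zero on the log2 scale, whereas that of Plk1 at GV ran from -0.33 to 0.30.

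Levels were compared between genes in FPKM, which is scaled by transcript length. At GV the order by median was Plk1 (187 FPKM), Pcnt (109), Tpx2 (78.3), Nedd1 (74.5), Plk4 (35.7), Tubg1 (29.0), Numa1 (21.7), Haus6 (8.87), Cep192 (8.40) and Cep152 (2.23). Plk1 was above Pcnt, Nedd1 above Plk4 and Cep192 above Cep152 without overlap of their ranges, and the other 6 pairs of neighbours overlapped. At MII it was Plk1 (184 FPKM), Pcnt (171), Nedd1 (148), Tpx2 (142), Plk4 (86.3), Tubg1 (34.4), Numa1 (33.8), Cep192 (20.1), Haus6 (11.5) and Cep152 (1.92). There Tpx2 was above Plk4, Plk4 above Tubg1, Numa1 above Cep192 and Haus6 above Cep152 without overlap, and the other 5 pairs overlapped. By median Plk1 and Pcnt led and Cep152 was last at both stages. Cep192 was below Haus6 in 4 of 6 GV oocytes and above it in 7 of 7 MII oocytes. Tubg2 was above Tubg1 in every library, by 3.11 to 4.50 times in FPKM at GV and by 3.43 to 7.21 times at MII, and the shared stretches named above limit how far the pair can be told apart.

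**Figure D3:**
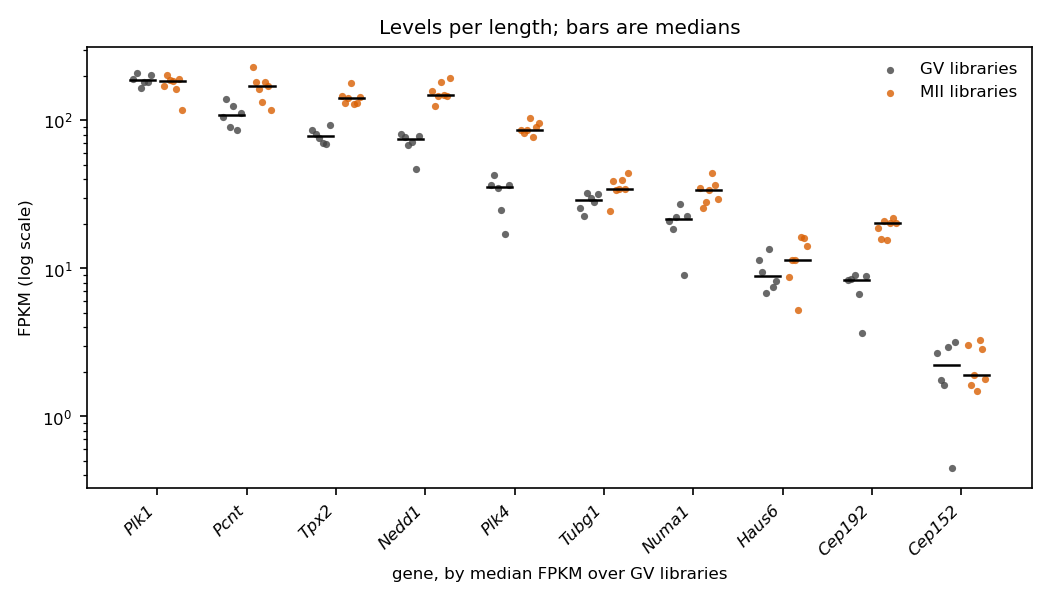
FPKM (vertical axis, log scale) of the 10 genes in GV (grey, 6) and MII (orange, 7) oocytes, ordered by the GV median. Points are single oocytes and bars are medians. The levels span from a median of 187 for Plk1 to 2.23 for Cep152 at GV. Plk1 and Pcnt have the highest medians at both stages, and at MII their ranges overlap those of Nedd1 and Tpx2.

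The partners of these proteins were taken from 7 lists with 79 genes, of which 76 were tested. Of these, 23 rose, 27 fell and 26 were not called, and their median log2 change was -0.12, beside -0.10 over all genes. Of all 11375 genes tested, 31.7% were called higher and 36.9% lower, and the partners as a whole were near these shares. The counts of each list below are to be read beside them. Calls in both directions were found in each of the 7 lists. Values are log2 changes by the same test, with the adjusted p over all genes.

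Of 8 genes of the γ-tubulin ring complex 3 rose and 2 fell, with a median of -0.21. Mzt1, a small subunit, rose by 1.21 ± 0.16 (SE) and Tubg2 by 0.94 ± 0.13. Tubgcp2, a core subunit, averaged 68.6 ± 12.7 CPM over the 6 GV and 2.37 ± 2.07 CPM over the 7 MII oocytes (± SD), a change of -4.94. Mzt2 was at 28.8 ± 5.59 CPM at GV and 1.24 ± 0.75 CPM at MII, a change of -4.49. In this complex Tubg2 and Mzt1 were higher while 2 subunits fell to a few CPM. Over all genes tested, 31.7% were called higher and 36.9% lower. The call of Tubg1, also higher, was lost under 5 of 22 alternatives.

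Of 7 other augmin subunits 2 rose and 5 fell, with a median of -1.41, against no call for Haus6. Haus4 rose by 1.05 ± 0.13 (SE) and Haus5 by 0.73 ± 0.14. Haus7 changed by -3.04 ± 0.38 and Haus1 by -2.79 ± 0.41, and Haus1 went from 22.0 ± 3.004 CPM at GV to 3.12 ± 1.93 CPM at MII. The called mRNAs of this complex went in both directions, beside 31.7% of all genes tested called higher and 36.9% called lower.

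Of 12 genes of the pericentriolar material 4 rose and 5 fell, with a median of -0.06. Pcm1, a satellite scaffold, rose by 1.62 ± 0.23 (SE) and Akap9, a large anchoring scaffold, by 1.02 ± 0.19. Cep131 changed by -2.78 ± 0.40 and Cep72 by -2.49 ± 0.39, both from under 10 CPM on average at GV.

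Of 14 centriole duplication genes 6 rose and 3 fell, with a median of 0.33, the highest of the 7 lists. Ccp110, which caps centrioles, rose by 1.55 ± 0.19 (SE) and Cenpj by 1.12 ± 0.21. Cetn2, a centrin, changed by -2.79 ± 0.20 and Sfi1, a centrin-binding protein, by -2.27 ± 0.48. With libraries scaled by total counts 2 of these genes were called higher and 4 lower.

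Of 8 regulators of polo kinases and Aurora A, 5 were tested, and Plk3, Plk5 and Ajuba did not pass the filter. Btrc, a subunit of an SCF ubiquitin ligase, fell from a mean of 386 ± 36.5 CPM at GV (± SD, n = 6) to 56.9 ± 9.52 CPM at MII (n = 7), a change of -2.76 ± 0.15 (SE). Aurka, the gene of Aurora A, which TPX2 activates, changed by -0.99 ± 0.18. Plk2 rose by 1.91 ± 0.58 at levels of 1.82 CPM at GV and 6.84 CPM at MII, and Ppp6c, the phosphatase that acts on Aurora A, by 0.45 ± 0.19 (adjusted p = 0.046, edgeR's quasi-likelihood test). Both rises were lost with NSN GV oocyte 2 and NSN-MII oocyte 3 left out (adjusted p = 0.056 and 0.086), and that of Ppp6c under 20 of 22 alternatives.

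Of 15 genes of Ran-dependent spindle assembly, where Tpx2 belongs, 3 rose and 5 fell, with a median of 0.08. Ckap5, a microtubule polymerase, rose by 1.46 ± 0.25 (SE) and the kinesin Kif15 by 1.15 ± 0.33, which was not called in FPKM values by limma (0.38, adjusted p = 0.223). Kpna2, an importin α, fell from a mean of 1752 ± 294 CPM at GV (± SD, n = 6) to 159 ± 83.2 CPM at MII (n = 7), a change of -3.73, and Tacc3, a partner of Ckap5, from 2228 ± 307 CPM to 193 ± 105 CPM, a change of -3.58. These were the only genes of the 7 lists called between the classes, and only at MII. Kpna2 averaged 78.9 ± 12.7 CPM over the 3 NSN-MII and 219 ± 50.6 CPM over the 4 SN-MII oocytes (-1.47 ± 0.22 on the log2 scale, adjusted p = 0.027, edgeR's quasi-likelihood test). Tacc3 was at 292 ± 80.4 CPM in NSN-MII and 119 ± 24.4 CPM in SN-MII oocytes (1.29 ± 0.22, adjusted p = 0.041). Both calls were lost without SN-MII oocytes 2, 3 or 4 or without NSN-MII oocyte 1, and that of Kpna2 also without NSN-MII oocyte 2 (adjusted p up to 0.162), and both were lost in FPKM values by limma and with total counts.

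Of 15 genes for dynein, NuMA partners and pole focusing 3 rose and 5 fell, with a median of -0.30. Camsap1, which binds microtubule minus ends, rose by 1.27 ± 0.15 (SE) and Nde1, a dynein regulator, by 0.80 ± 0.22. Dctn2, a dynactin subunit, changed by -3.49 ± 0.38. Over the alternatives 2 to 4 genes of this list rose and 5 to 7 fell, with 2 and 7 when libraries were scaled by total counts and 4 and 5 without NSN GV oocyte 3.

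**Figure D4:**
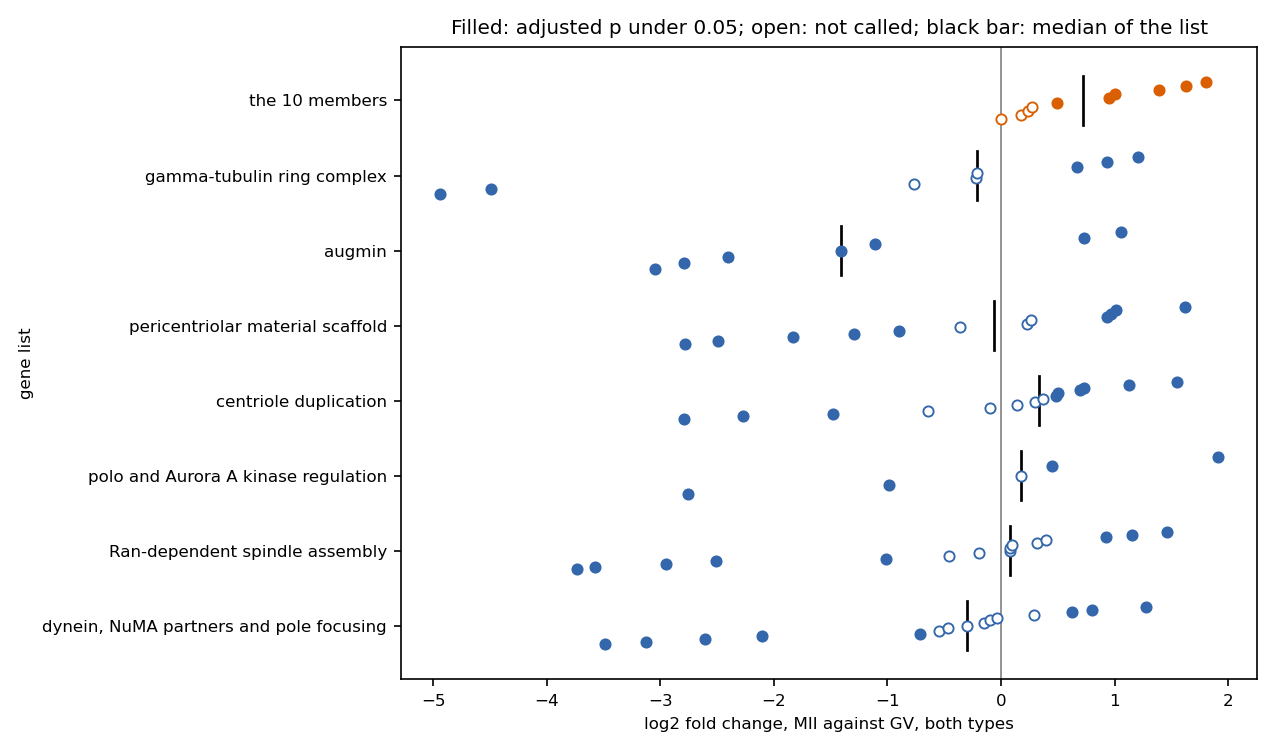
Log2 fold change of MII against GV over both classes (horizontal axis) for the 10 spindle pole genes (orange) and the tested genes of the 7 lists of partners (blue). Filled points had an adjusted p under 0.05, open points did not, and the black bar is the median of each list. The 10 genes, chosen with earlier results of these data known, have no filled point below zero. Each list of partners has filled points on both sides. With libraries scaled by total counts Plk1 was called lower. With NSN GV oocyte 2 and NSN-MII oocyte 3 left out, the polo and Aurora A list had 0 genes called higher.

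The spread between oocytes was wide for these genes in 1 group. Over genes with a mean of at least 10 CPM, the median coefficient of variation among NSN GV oocytes was 40.9% for the 10 genes and 25.4% for all genes. In SN GV, SN-MII and NSN-MII oocytes it was 12.4%, 17.1% and 17.9% for the 10 genes and 14.6%, 16.5% and 23.0% for all genes. Cep192 varied most among NSN GV oocytes, at 79.5%, and Tubg1 least, at 11.1%. NSN GV oocyte 2 had the lowest value of the 6 GV oocytes for 7 of the 10 genes. Its Cep192 count was 63, beside 316 to 501 in the other 5, and its Numa1 count 233, beside 615 to 927. Plk1, Tubg1 and Tpx2, whose transcripts are 2199, 1802 and 4365 bases long, were within the range of the others in that library. Plk4 and Nedd1, with transcripts of 3479 and 3534 bases, were low there too, at log2 deviations of -0.83 and -0.76 from the mean of the other GV libraries.

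Over all genes that library was low in long transcripts. Its median log2 deviation from the other GV libraries was 0.34 for transcripts under 2 kb, 0.07 from 2 to 4 kb, -0.31 from 4 to 6 kb and -0.52 from 6 kb on. Cep192 (8093 bases), Pcnt (9331), Numa1 (7180) and Haus6 (6158) belong to the last group. Cep152 (5768) and Tpx2 (4365) belong to the one before it, and Tpx2 was hardly low, at a log2 deviation of -0.096. Plk4 and Nedd1 belong to the group from 2 to 4 kb, which was not low as a whole. The other 5 GV libraries lay between -0.06 and 0.31 in the longest group. The part of transcript length in the member values was not tested, and the calls of Cep192, Plk4, Nedd1, Tpx2, Numa1 and Tubg1 all held without this library.

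**Figure D5:**
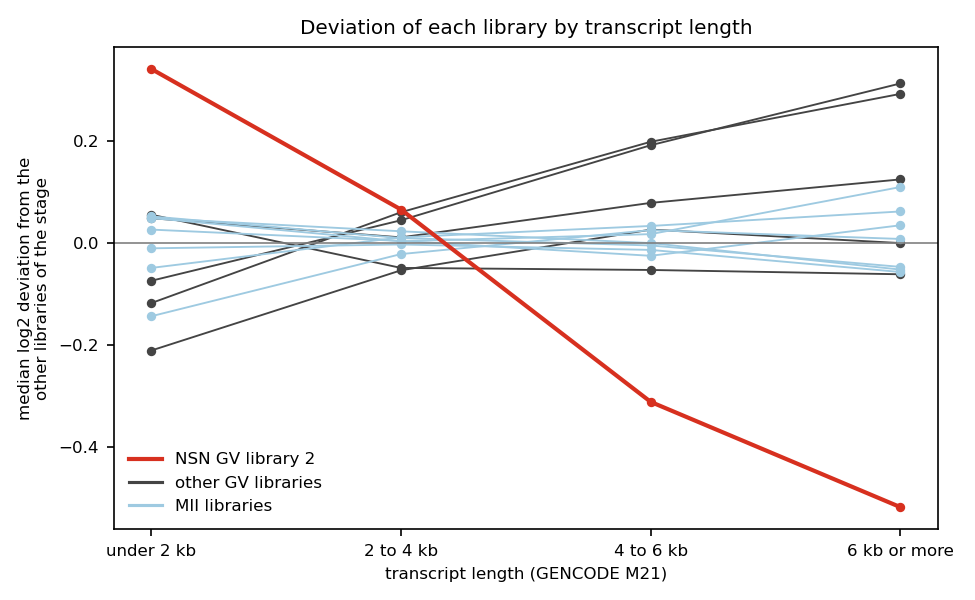
Median log2 deviation of each library from the other libraries of its stage (vertical axis) for genes in 4 classes of transcript length (horizontal axis, GENCODE M21). NSN GV oocyte 2 (red) falls from 0.34 in the shortest to -0.52 in the longest class, the other GV libraries (grey) lie between -0.21 and 0.31 and the MII libraries (blue) between -0.14 and 0.11.

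Genes with the most similar pattern over the 13 libraries were sought for the members with the highest and the lowest change between stages, by the root mean square difference of centred log2(CPM + 1). For Cep192 these were Ern1 (0.20), Carmil1 (0.21) and C2cd3 (0.21), beside a median of 1.31 over all tested genes. For Plk1 they were Hmg20b (0.11), Mcrs1 (0.13) and Cs (0.15), beside a median of 0.71. Among the 10 genes the closest pair was Plk4 and Nedd1, the kinase and the γ-tubulin adaptor, at 0.22.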

How the data were processed

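The authors trimmed the reads (Trim Galore 0.4.4), aligned them to mm10 with Bowtie2 2.3.5 and quantified genes with RSEM 1.2.28, per the labels, which also name DESeq2 1.20.0. The authors deposited expected counts (estimated counts), 1 table per stage, and FPKM values, 1 table for all libraries, which RSEM scales by an estimated length and by depth. Up to 16.6% of a library's values were not whole, and counts were rounded here. Groups came from the deposited labels.

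Genes were filtered with filterByExpr, scaled by TMM and tested with edgeR 4.0.16 (R 4.3.3) quasi-likelihood, with Benjamini-Hochberg adjustment over all genes. One fit of 13 libraries gave the stage comparisons and the interaction, and a fit per stage gave NSN against SN. Alternatives were DESeq2 1.42.0 and its size factors, total counts, no filter, limma 3.58.1 on log2(FPKM + 1) or log2(FPKM + 0.1), a replicate block, all libraries in 1 fit and each library left out. Leaving out 2 libraries together was added after the data were seen. The common biological coefficient of variation was 0.352 at GV and 0.344 at MII, above counting error for most members. Over same-numbered pairs, deviations correlated between -0.46 and 0.20, with 2 of 12 over 0.1, so numbers were not taken as pairs. The steps were tested on simulated data. No 2 libraries of a group were copies.

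The 10 genes and the lists of partners were chosen with earlier results of these data known. All members were named, along with the 2 largest called rises and falls of each list between stages, any list gene called between classes, and 3 genes of closest pattern for 2 members. One gene that this rule names is not reported here. Sequences came from GENCODE M21 (GRCm38).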

Additional observations from a re-analysis of the deposited data

Results flagged for a closer look

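Numa1 had 1 library far from the others. Over the 6 GV oocytes NSN GV oocyte 2 was the lowest, at 29.1 CPM, with the nearest at 74.1 CPM, and this gap took up 0.658 of the whole range, above Dixon's 95% critical value for 6 samples. Of 30 combinations of a member and a group checked in this way 1 stood out, and chance alone marks about 1 in 20. The same library was low in long transcripts, as given above, and the part of that in the Numa1 value was not tested.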

How the results depend on the processing

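The number of members called between stages was 6 under each alternative other than leaving out NSN-MII oocyte 3 (5), and the genes were the same except with total counts (Plk1, lower, in place of Tubg1) and with limma on FPKM (Pcnt in place of Tubg1). Of all called genes 46.2% were higher, 36.7% with total counts and 36.2% with limma and no filter. The median over all genes was -0.10, -0.39 with total counts and -0.29 with DESeq2. Total counts turned the uncalled stage differences of Pcnt (-0.049), Cep152 (-0.012) and Haus6 (-0.12). That of Plk1 ranged from -0.065 to 0.047 when single libraries were left out and was 0.049 without NSN GV oocyte 2 and NSN-MII oocyte 3. The uncalled differences of NSN against SN at GV, with single libraries left out, ranged from -0.91 to 0.24 for Cep192, from -0.38 to 0.23 for Pcnt and from -0.39 to 0.33 for Numa1, and with both left out they were 0.24, 0.23 and 0.33. The interaction value of Pcnt ranged from -0.65 to 0.014 with single libraries left out.

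Counts over all genes moved more. For NSN against SN at GV limma on either FPKM scale called 1 gene. At MII (26 called) DESeq2 called 221, total counts 16, no filter 89, limma 4, 4 and, without a filter, 2, and all libraries in 1 fit 69. The replicate block, which the labels do not support as a pairing, called 2, and it also ended the calls of Numa1 in SN oocytes (0.69 between stages, adjusted p = 0.085), of Ppp6c, and of Kpna2 and Tacc3 between classes. Leaving out 1 library gave 2 (without NSN-MII oocyte 1) to 233 (without NSN-MII oocyte 3), and leaving out both gave 233. The interaction (2 called) gave 43 with DESeq2, 6 without a filter, 1, 1 and 4 with limma, 0 to 12 with 1 library left out (12 without NSN-MII oocyte 3), and 4 with both. No member was called in these comparisons under any alternative. Of 1258 values for single genes under alternatives 1173 kept direction and side of the threshold, 62 kept direction and lost the call, 5 gained it and 18 reversed. The cause of these changes was not tested. With 3 or 4 oocytes a group, the intervals given above bound what these comparisons could show.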
